A study of Mus musculus with 2 samples.

Results

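The 83 genes described here encode the proteins of the cytosolic ribosome, the particle that reads mRNA and builds protein, together with the copies of these genes that are used mainly in particular tissues. They were taken by symbol: Rpl or Rps followed by a number and at most a short suffix, the stalk genes Rplp0, Rplp1 and Rplp2, and Rpsa. Kinase genes of the Rps6k family were left out. These symbols were 83 of 20211 in the expression tables, with 51 genes of the large subunit and 32 of the small subunit, and each stood on a single line. Genes whose RPKM averaged 1 or more across the libraries are called expressed here, and 80 of the members were, 48 large and 32 small. RPKM is a read count divided by the length of the transcript and by the mapped reads of the library, so that levels of different genes are set per length. The remaining 3 members were Rpl3l, Rpl10l and Rpl39l, which lay near or at 0.

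RNA was sequenced from primary perivascular cells (PVCs or PCs), the cells that wrap small vessels and lie around the vessel wall, grown from mouse aorta on a C57BL/6 background. The sample labels give a wild-type (WT) and a Kai1 knockout (Kai1 KO) culture in DMEM with 10% FBS, each sequenced as 1 library. Kai1, also named Cd82, encodes a tetraspanin of the cell surface, and the study asked which transcripts differ in PCs without it. The sources used here give neither the number of animals behind a culture nor the design of the knockout allele. With 1 library per genotype there was no test, and every difference below may equally hold what set the animals, their cultures or the preparation of the RNA apart.

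A ribosome has a small subunit, which holds the mRNA and its decoding site, and a large subunit, which joins amino acids. Each subunit is built in the nucleolus from ribosomal RNA and one copy of nearly every ribosomal protein, so that cells make these proteins in matched amounts. Ribosomal protein mRNAs are short, are among the most abundant of most cells, and as a rule begin with a C followed by a run of pyrimidines, the terminal oligopyrimidine (TOP) motif, through which their translation follows growth signals. A few genes have a second copy that replaces or joins the parent protein in some tissues, such as Rpl3l in heart and skeletal muscle and Rpl10l and Rpl39l in male germ cells.

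Cd82 itself, the targeted gene, was listed at 12.8 RPKM in WT and 2.62 RPKM in Kai1 KO. From the steps between low values, each RPKM and kilobase of length corresponds to about 29.5 reads in WT and 26.7 reads in Kai1 KO. These constants turn RPKM into estimated reads and are not read totals. As a fraction of the total that each constant implies, the estimated reads of genes with a length summed to 0.98 in WT and 1.17 in Kai1 KO. The steps therefore do not show which library had more reads. Some mural cell markers were present in both libraries and others were low. Acta2, smooth muscle actin, was at 3823 RPKM in WT and 2580 RPKM in Kai1 KO. Pdgfrb, the receptor that marks pericytes, was at 44.7 and 31.6 RPKM, and Tagln, Cnn1 and Cspg4 were also expressed. Myh11 was listed at 2.96 and 0.346 RPKM and Mcam at 4.90 and 0.264 RPKM, while Des, Rgs5 and Notch3 averaged below 1 RPKM. Endothelial markers were absent from Kai1 KO, where all 7 were listed at 0, and reached at most 0.413 RPKM in WT. The Y-linked genes Ddx3y, Eif2s3y, Kdm5d and Uty were listed at 6.56, 3.17, 0.941 and 0.479 RPKM in WT and at 0 in Kai1 KO, so that genotype and the presence of Y-linked transcripts cannot be told apart.

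Genes of both ribosomal subunits were higher in the Kai1 KO library. On the scale of log2((RPKM in Kai1 KO + 0.1)/(RPKM in WT + 0.1)), the log2 ratio used throughout, all 80 genes were above 0, against 55.1% of the 10068 expressed genes. Their median log2 ratio was 0.87, a fold of 1.83, and the middle part of the genes, from the lower to the upper quartile, ran from 0.66 to 1.05. The median of all 10068 genes was 0.08. More than 2-fold higher were 25 of the 80 genes, against a background of 7.98% of all genes, and 0 were more than 2-fold lower, against 7.81%. At least 1.5 times higher were 65 of the 80, against 20.7% of all genes. The spread of the members was narrow, with an SD of 0.33 around their mean log2 ratio, where the SD of all genes was 0.86. Other abundant genes had lower ratios. The 432 genes outside the group with a mean of at least 200 RPKM had a median log2 ratio of 0.26, with 26 more than 2-fold higher and 24 more than 2-fold lower.

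How large the difference was depended on how the libraries were set against each other. Gapdh, a glycolytic enzyme, was itself at 4238 RPKM in WT and 5997 RPKM in Kai1 KO. Scaled to Gapdh, the members' median log2 ratio was 0.37. There 2 of the 80 members were more than 2-fold higher, a share similar to that of all genes, 278 of 10068. In that scaling 72 of the 80 stayed above 0, with Rpl37a, Rpl28, Rpl21, Rpl14, Rpl4 and Rplp2 among the exceptions, while 77 of the 80 lay above the median of all genes, which was then -0.41. Every scaling tried shifted all genes alike, by -0.08 to -0.50 on the log2 scale.

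**Figure D1:**
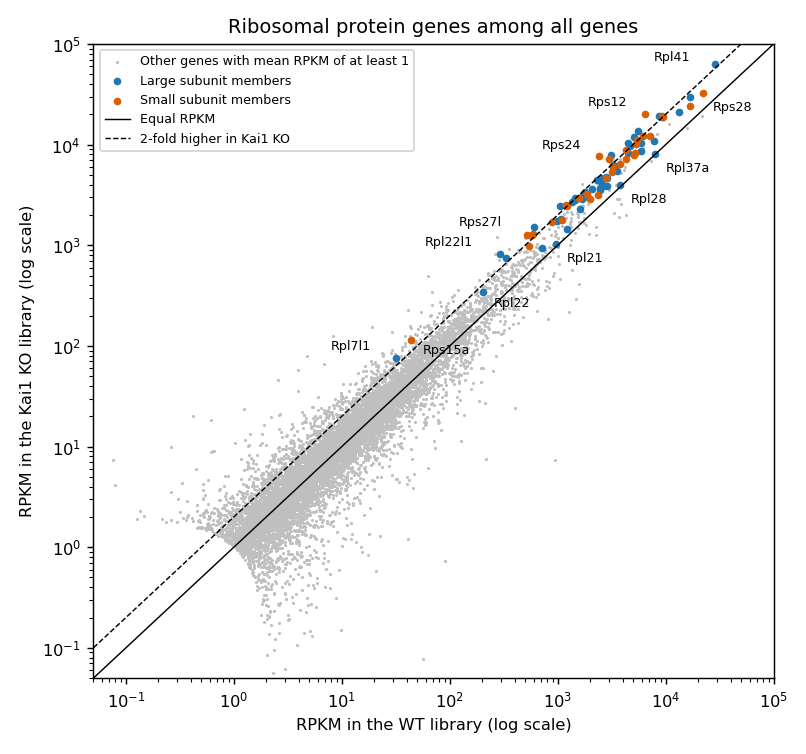
RPKM in the WT library (horizontal, log scale) against the Kai1 KO library (vertical, log scale) for expressed genes, those at 0 in either library or beyond the axes not drawn. Blue and orange points are the 80 members of the large and small subunit, which all lie above the line of equal RPKM, 25 of them above the dashed line of 2-fold and the highest, Rps24, at 3.15-fold.

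The members made up 37.5% of the summed RPKM in WT and 48.9% in Kai1 KO, where the sums were 884463 and 1238193. The large subunit held 21.7% and 28.3%, and the small subunit 15.8% and 20.7%. Between the subunits the balance was the same in both libraries, with 57.8% of the members' RPKM in the large subunit in WT and 57.8% in Kai1 KO. Among the 20 genes of highest RPKM, 13 were members in WT and 15 in Kai1 KO, and among the top 100, 57 and 63. A member, Rpl41, stood first in both libraries. Over 1000 RPKM were 66 of the 80 in WT and 73 in Kai1 KO. RPKM gives short transcripts a large weight, and as a share of estimated reads, without Rpl41 and Rps3a1 for which no transcript length was found, the members held 18.5% in WT and 27.3% in Kai1 KO. These estimates take the longest annotated transcript, 3706 bases for Rps20 and 4999 for Rpl24, whose coding sequences have 360 and 474 bases. The share rests on such lengths, which may not be those behind the deposited RPKM.

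The large and small subunits had similar ratios. The 48 large subunit genes had a median of 2546 RPKM in WT and 3958 RPKM in Kai1 KO, and a median log2 ratio of 0.83, with 14 genes more than 2-fold higher. The 32 small subunit genes had a median of 3089 RPKM in WT and 6235 RPKM in Kai1 KO, and a median log2 ratio of 0.92, with 11 more than 2-fold higher. Of all genes 7.98% were more than 2-fold higher. The medians differed by -0.08 on the log2 scale, large minus small, which is small beside the SD of 0.34 among large and 0.30 among small subunit genes. With the trend of the log2 ratio on transcript length removed, the difference turned to 0.055. The lower ends differed more: the large subunit reached down to 0.01, and no small subunit gene lay below 0.42.

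**Figure D2:**
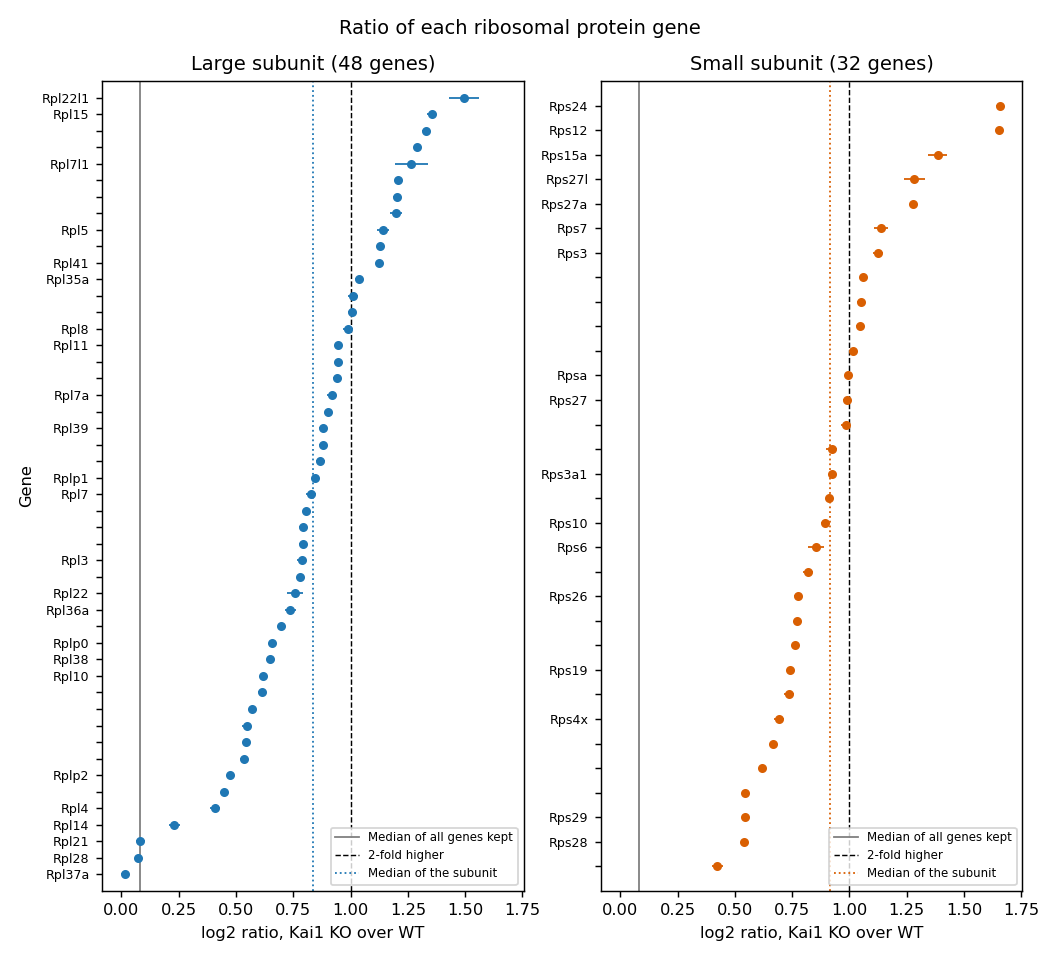
Log2 ratio of Kai1 KO over WT for each member, large subunit at left and small subunit at right, with bars for the 95% counting interval from estimated reads where a transcript length was known, and names for members the text describes. The dotted lines are the subunit medians of 0.83 and 0.92, the grey lines the median of all genes at 0.08 and the dashed lines 2-fold. 3 large subunit genes, Rpl37a, Rpl28 and Rpl21, lie at the median of all genes.

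The order of the genes by level was kept from WT to Kai1 KO. Across the 80 genes the 2 libraries correlated with Pearson's r of 0.98 on the log2 scale and a Spearman's rho of 0.98, given as a description across genes, which are no replicates and share both libraries. The highest member was Rpl41, the smallest ribosomal protein, at 28815 RPKM in WT and 62823 RPKM in Kai1 KO, a log2 ratio of 1.12. Rps28 followed with 22310 and 32426 RPKM, and Rps29, a zinc-binding protein of the small subunit, had 16782 and 24436 RPKM, with log2 ratios of 0.54 and 0.54. Rplp1, an acidic protein of the stalk, had 16702 and 29969 RPKM, a log2 ratio of 0.84. Rpl38, a short large subunit protein known from skeletal patterning, had 13302 and 20867 RPKM, a log2 ratio of 0.65. These 5 genes held 29.5% of the members' RPKM in WT and 28.1% in Kai1 KO.

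At the low end, Rpl7l1 had 31.7 RPKM in WT and 76.4 RPKM in Kai1 KO, a log2 ratio of 1.26. Rps15a had 44.2 and 115.6 RPKM, a log2 ratio of 1.39. Rpl22, an RNA-binding protein of the large subunit, had 201 and 341 RPKM, a log2 ratio of 0.76. Rps15a was the member with the longest annotated transcript, 5130 bases. The level ran over a 908-fold range in WT and an 823-fold range in Kai1 KO. Without Rpl7l1 and Rps15a the lowest WT level was 201 RPKM.

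Level went with transcript length. The longest annotated transcripts of 78 members ran from 345 to 5130 bases, with a median of 857.5, where that of all genes was 2887. Across them length and WT level had a Spearman's rho of -0.60, length and Kai1 KO level -0.63, and length and log2 ratio -0.10. By the steps between low values, the deposited RPKM appears to use a length shortened by about 200 bases, which raises short transcripts. With the full length in its place the rho of length and WT level was -0.50. The 39 shorter members had a median log2 ratio of 0.92, going from 3810 to 7890 RPKM in their medians. In the 39 longer members it was 0.79, with medians of 1683 and 2891 RPKM. Over all genes the ratio also followed length, and with that trend removed the members' median log2 ratio was 0.55, beside 0.07 for all genes with a length. What part transcript length had in the ratios was not tested further.

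**Figure D3:**
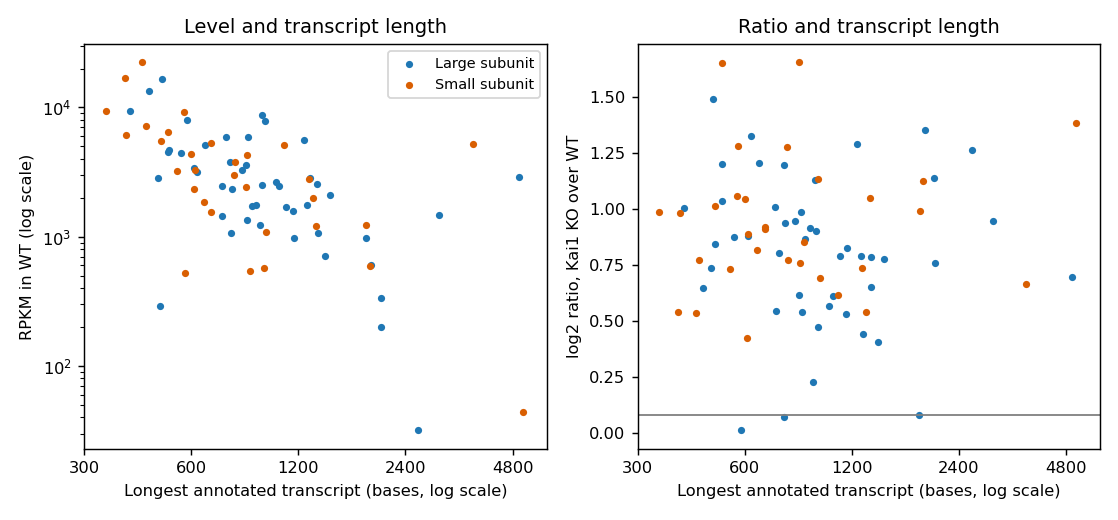
Longest annotated transcript of 78 members (bases, log scale) against RPKM in WT (left, log scale) and against the log2 ratio of Kai1 KO over WT (right), large subunit in blue and small subunit in orange. Levels are lower in longer transcripts, with a rho of -0.60, and the ratio shows little order with length, with a rho of -0.10. The grey line is the median of all genes, 0.08.

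The largest ratios belonged to a pair of small subunit genes. Rps24, a gene mutated in the inherited red cell aplasia Diamond-Blackfan anaemia, had 2420 RPKM in WT and 7628 RPKM in Kai1 KO, a log2 ratio of 1.66. Rps12 had 6453 and 20303 RPKM, a log2 ratio of 1.65. About 98.2% of the 10068 genes had a lower ratio than Rps24, so that these genes did not stand at the edge of all genes as they did among the members. In mm9 Rps24 lies on the plus strand of chromosome 14 (25309903 to 25315368) and Rps12 on the minus strand of chromosome 10 (23504990 to 23507015). Next came the paralogue Rpl22l1 at 1.49, Rps15a at 1.39 and Rpl15, a core protein of the large subunit, with 599 RPKM in WT and 1529 RPKM in Kai1 KO, a log2 ratio of 1.35. Of the 80 genes 6 were more than 2.5-fold higher, and the lowest of these, Rpl34, had a larger ratio than 96.1% of all genes. Between 1.5-fold and 2-fold lay 40 of the 80. Of all genes 20.7% were at least 1.5 times higher and 7.98% more than 2-fold higher.

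At the other end, 4 large subunit genes were less than 1.2-fold higher. The highest of these, Rpl14, had a larger ratio than 59.6% of all genes. Rpl37a, a small zinc-binding protein, had 7925 RPKM in WT and 7998 RPKM in Kai1 KO, a log2 ratio of 0.01. Rpl28 had 3810 and 4007 RPKM, a log2 ratio of 0.07. Rpl21 had 968 and 1025 RPKM, a log2 ratio of 0.08. These genes lay at the median of all genes and not with the other members, although Rpl37a was as abundant as many of them. Rpl14 followed with 1232 and 1445 RPKM, a log2 ratio of 0.23, and Rpl4, which lines the exit tunnel of the large subunit, with 709 and 940 RPKM, a log2 ratio of 0.41. Counting error was small beside these differences, with a 95% half-width of at most 0.07 on the log2 scale in any of the 78 members with a length and a median of 0.016.

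Pyrimidine runs were found at the starts of members with high and with low ratios. The sequences below, from RefSeq annotation of GRCm38.p6, cover 10 bases before and 20 bases from the annotated first base of the mRNA, on the strand of the gene, and are shown because this is where the TOP motif lies. Capitals mark the longest run of pyrimidines that opens with C and has at least 5 bases. The first 4 genes are among the highest by log2 ratio and the last 4 among the lowest.
Rps24: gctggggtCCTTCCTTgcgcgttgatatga
Rps12: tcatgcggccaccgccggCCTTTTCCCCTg
Rps15a: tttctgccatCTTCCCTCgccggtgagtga
Rpl15: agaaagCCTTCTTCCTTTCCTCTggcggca
Rpl28: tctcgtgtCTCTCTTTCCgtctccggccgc
Rpl14: ggCCCTCTCTCTTCTCgctgagcgccgcca
Rpl37a: ctcgccggtctaaaaccgcgcatgcgcatt
Rpl4: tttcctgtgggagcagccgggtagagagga

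Rpl28 and Rpl14, with log2 ratios of 0.07 and 0.23, had a C of the run at the annotated first base, as did Rps15a and Rpl15 with 1.39 and 1.35. In Rps24, with 1.66, the run also covers the first base, which there is a T. The window of Rps24 lies at chr14:24490668-24490697 on the plus strand and that of Rps12 at chr10:23787190-23787219 on the minus strand, both in GRCm38.p6. The searched motif was a C followed by at least 4 bases that are each C or T, read on the strand of the gene only. Starts were found for 63 members, 75 in all, and 45 of these windows (60%) held the motif, against 35.8% of 32851 windows of the same length from all genes. With its C at the annotated first base it stood in 13 of 75 (17.3%), against 2.51% of all. Among the expressed members, the 39 with a run had a median log2 ratio of 0.89 and the 21 without had 0.92. The 13 with the run at the first base had 0.98, beside 0.88 in the other 47. A match is a description of these letters, and the annotated first base can lie some bases from the one used in these cells.

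Many members have near-copies elsewhere in the genome, mostly processed pseudogenes, to which short reads can match as well. Every stretch of 30 bases of each coding sequence was searched in the mm9 genome outside the gene. In the 81 members with a coding sequence the median share of stretches found elsewhere was 96.4%, and in 74 it was over 50%, whereas the median was 0% for the mitochondrial ribosomal protein genes. Matches lay at a median of 16 other places a gene, and at up to 179 for Rpl7a. How the authors treated reads with several matches is not given in the sources used here, so levels of single members are uncertain. Only 4 expressed members had under 50% elsewhere, among them Rpl8 with 11.3%, Rps3 with 20.1% and Rpl4 with 40.4%, whose log2 ratios were 0.99, 1.12 and 0.41. The median log2 ratio of the 4 was 0.88, close to the 0.87 of all 80. Across 78 members the share found elsewhere and the log2 ratio had a Spearman's rho of -0.03.

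The paralogues used mainly in striated muscle or male germ cells were at or near 0, while their parent genes were abundant. Rpl3l, on chromosome 17 from 24864774 to 24873094 in mm9, was listed at 0.121 RPKM in WT, which corresponds to about 4 reads with an exact Poisson 95% interval of 1.09 to 10.2. In Kai1 KO it was listed at 0, where 3 reads would have given 0.0960 RPKM. Its parent Rpl3, on chromosome 15 from 79908211 to 79913836, which helps to form the peptidyl transferase centre, had 1063 RPKM in WT and 1834 RPKM in Kai1 KO, a log2 ratio of 0.79. Striated muscle markers were mixed, with the muscle creatine kinase Ckm at 0.139 and 0.0308 RPKM and the cardiac myosins Myh6 and Myh7 at 0, whereas Tnnt2, cardiac troponin T, had 62.6 and 131.9 RPKM and Acta1, skeletal actin, 15.3 and 0.888 RPKM.

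Rpl10l, on chromosome 12 from 67384368 to 67385388, was listed at 0 in both libraries, where 3 reads would have given 0.124 RPKM in WT and 0.137 RPKM in Kai1 KO. Its X-linked parent Rpl10, which joins the large subunit late and is needed for subunit joining, had 3556 and 5456 RPKM, a log2 ratio of 0.62. Rpl39l, on chromosome 16 from 10170319 to 10175004, was listed at 0 in WT and at 1.14e-05 RPKM in Kai1 KO, far below the 0.186 RPKM of 3 reads. Rpl39, its X-linked parent at the exit tunnel, had 3369 and 6198 RPKM, a log2 ratio of 0.88. The germ cell markers were as low, with 0 of 8 expressed and Prm1, a sperm protamine, at 0 in both libraries.

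Rpl22l1, Rps27l and Rpl7l1 were expressed, and all 3 had a larger ratio than their parent. Rpl22l1, on chromosome 3 from 28704358 to 28706274, had 293 RPKM in WT and 826 RPKM in Kai1 KO, a log2 ratio of 1.49. Rpl22, on chromosome 4 from 151699851 to 151708180, had a log2 ratio of 0.76 and was the lower of the pair in both libraries on the deposited scale. Rpl22l1 thus stood at 146% of Rpl22 in WT and at 243% in Kai1 KO, or 59.3% and 70.8% of the sum of the pair. The log2 ratios differed by 0.74, with a 95% counting half-width of 0.08. The order of the pair in WT rested on the length used, since with the full transcript length in RPKM Rpl22l1 had 173 and Rpl22 had 182 in WT, and 488 and 307 in Kai1 KO.

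Rps27l, on chromosome 9 from 66793893 to 66797323, is known as a target of p53 and had 520 RPKM in WT and 1265 RPKM in Kai1 KO, a log2 ratio of 1.28. Its parent Rps27, on chromosome 3 from 90016593 to 90017573, had 9449 and 18762 RPKM, a log2 ratio of 0.99. The paralogue was at 5.50% of the parent in WT and 6.74% in Kai1 KO, and the log2 ratios differed by 0.29, with a counting half-width of 0.05. Cdkn1a, the best known p53 target, was lower in Kai1 KO, with 650 RPKM in WT and 327 RPKM in Kai1 KO. Rpl7l1, on chromosome 17 from 46910856 to 46919605, went from 3.24% to 4.40% of Rpl7, which lies on chromosome 1 from 16091376 to 16094743 and had 978 and 1734 RPKM, a log2 ratio of 0.83. Here the log2 ratios differed by 0.44, with a counting half-width of 0.08. These half-widths cover counting error only and not the difference between cultures. Elsewhere in the genome, 92.1% of the 30-base stretches of Rpl22l1, 62.4% of Rps27l and 53.1% of Rpl7l1 were found. In the parents Rpl22, Rps27 and Rpl7 the share was 57.5%, 100% and 89.0%. Reads with several matches can change these pair shares and ratios, and by how much was not tested. The differences within a pair are the same under any scaling of whole libraries apart from the added 0.1.

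**Figure D4:**
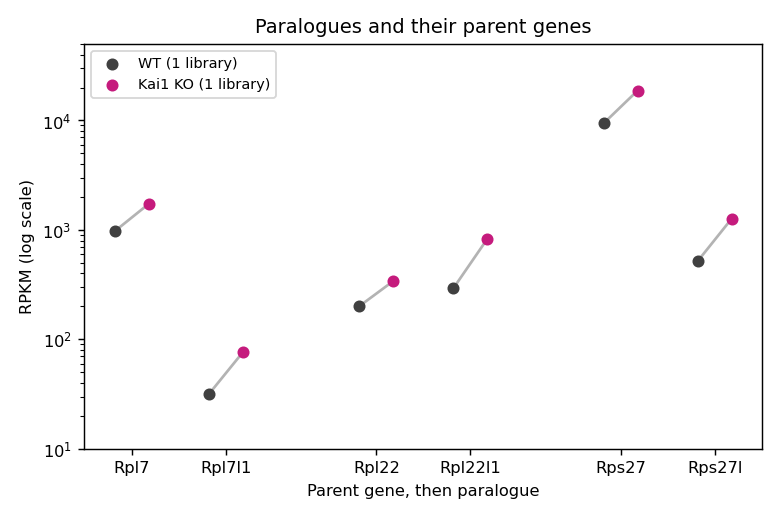
RPKM (log scale) of 3 expressed paralogues and their parent genes in WT (dark points) and Kai1 KO (pink points), 1 library each, joined by a line per gene. Each paralogue line is steeper than that of its parent, with log2 ratios of 1.26, 1.49 and 1.28 for Rpl7l1, Rpl22l1 and Rps27l against 0.83, 0.76 and 0.99.

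Parents and paralogues differed in their coding sequences. The first 30 coding bases of each pair from GENCODE M1 on mm9, printed with capitals where the aligned bases of parent and paralogue differ, show how far the copies have moved apart from the start codon on.
Rpl22: atggcgccTGTgaaaAaGCTTGTgGcGaag
Rpl22l1: atggcgccGCAgaaaGaCAAGAAgCcTaag
Rps27: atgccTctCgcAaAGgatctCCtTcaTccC
Rps27l: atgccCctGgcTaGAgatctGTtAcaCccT
Rpl39: atgTcttctcacaagacTttcCgAatcaag
Rpl39l: atgGcttctcacaagacCttcAgGatcaag
Rpl3: atgtcTcacAggaaAttctcAgcTccCAgg
Rpl3l: atgtcCcacCggaaGttctcTgcCccTCgg

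In these stretches Rpl22 and Rpl22l1 differed at 12 of 30 bases, Rps27 and Rps27l at 10, Rpl3 and Rpl3l at 7 and Rpl39 and Rpl39l at 4. Over the whole coding sequence the aligned identity to the parent was 85.3% for Rpl39l, 84.8% for Rpl10l, 76.1% for Rps27l, 73.3% for Rpl3l, 68.2% for Rpl22l1 and 54.1% for Rpl7l1. The longest run of bases shared without a mismatch was 38 in Rpl39l, where 9 of 127 stretches of 30 bases were found in Rpl39, and between 10 and 26 in the other pairs, where 0 stretches of 30 bases were shared. These counts compare parent and paralogue only and leave out copies elsewhere in the genome.

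The stalk genes had ratios of 0.47 to 0.84. Rplp0, Rplp1 and Rplp2 form the stalk of the large subunit that calls in the elongation factors. Rplp0 had 2577 RPKM in WT and 4058 RPKM in Kai1 KO, a log2 ratio of 0.65, and Rplp2 had 7849 and 10902 RPKM, a log2 ratio of 0.47. With Rplp1 their median was 0.65, below the 0.87 of all members, on 3 genes.

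Rpl5 and Rpl11 travel with the 5S ribosomal RNA and, outside the ribosome, bind the p53 ligase Mdm2. Rpl5 had 335 RPKM in WT and 739 RPKM in Kai1 KO, a log2 ratio of 1.14, and Rpl11 had 3265 and 6292 RPKM, a log2 ratio of 0.95. Mdm2 itself stayed near the median of all genes, with 40.2 and 43.1 RPKM and a log2 ratio of 0.10. Among the 9 members on the list of Diamond-Blackfan anaemia genes, which include Rpl5 and Rpl11, 5 were more than 2-fold higher, against 25 of all 80 members and 7.98% of all genes, and the median log2 ratio was 1.02. The list is short and leaves out rarer genes of the disease such as Rps28 and Rps29, both at 0.54. Rps19, the gene most often mutated in that disease, had 2774 and 4629 RPKM, a log2 ratio of 0.74. Rps7 had 577 and 1268 RPKM, a log2 ratio of 1.14. Rpl35a had 4690 and 9627 RPKM, a log2 ratio of 1.04. Both lay past 2-fold, as did Rpl5 and Rps24, and Rps10 and Rps26 were below it at 0.89 and 0.77.

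Rps6, the protein phosphorylated by S6 kinases when growth signals are on, had 547 RPKM in WT and 989 RPKM in Kai1 KO, a log2 ratio of 0.85. Rpsa, which is also described as a laminin-binding protein, had 1231 and 2450 RPKM, a log2 ratio of 0.99. Rps27a, made as a fusion with ubiquitin, had 2981 and 7235 RPKM, a log2 ratio of 1.28. Some ribosomal genes fall outside the symbol rule, among them Fau, made as a fusion with a ubiquitin-like protein, with 6172 and 9313 RPKM and a log2 ratio of 0.59, Rpl36al with 0.84 and Gnb2l1, the Rack1 scaffold of the small subunit, with 0.90. The 4 expressed ribosomal genes outside the rule had a median log2 ratio of 0.74. The X-linked members Rps4x, Rpl10, Rpl36a and Rpl39 ran from 0.62 to 0.88 with a median of 0.71. Of these 4 genes 0 passed 2-fold, against 25 of all 80 members and 7.98% of all genes, a difference that 4 genes cannot resolve.

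Genes that build the ribosome had ratios near those of its proteins, and the lists of translation factors had lower medians. All 41 expressed ribosome assembly genes were above 0, with a median log2 ratio of 0.81 and 9 more than 2-fold higher. Npm1, a nucleolar chaperone, had 288 RPKM in WT and 713 RPKM in Kai1 KO, a log2 ratio of 1.31, and Fbl, the methylase of ribosomal RNA, had 91.5 and 218 RPKM, a log2 ratio of 1.25. Ncl, nucleolin, had a log2 ratio of 0.94, and Sbds, which frees the new large subunit, had the lowest of the list at 0.17. The 13 genes of RNA polymerase I and its factors had a median log2 ratio of 0.62. Of them 2 (15.4%) were more than 2-fold higher, against 7.98% of all genes, a difference that 13 genes cannot resolve. These were Polr1b at 1.29 and Taf1b at 1.34, and the initiation factor Rrn3 lay at -0.20. Both medians stayed above 0 under the scaling of the largest shift, -0.50.

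The list of 8 elongation factor symbols had a median log2 ratio of 0.24, and it includes Eef2k, the kinase of Eef2, at 0.14 and Eef1e1, a protein of the tRNA synthetase complex, at 0.09. Eef1a1, which brings aminoacyl-tRNA, had 1178 RPKM in WT and 1374 RPKM in Kai1 KO, a log2 ratio of 0.22, and Eef2, the translocase, 655 and 945 RPKM, a log2 ratio of 0.53. The exchange factor subunits Eef1b2, Eef1d and Eef1g lay at 0.71, 0.67 and 0.26. Eef1a2, the form of muscle and nerve, was listed at 2.47 RPKM in WT and 0 in Kai1 KO. The 51 genes with symbols from Eif1 to Eif6, among them kinases and binding proteins of these factors, had a median of 0.38. Of them 3 (5.88%) were more than 2-fold higher and 1 was lower, against 7.98% and 7.81% of all genes. Eif5a was at 861 and 1754 RPKM, a log2 ratio of 1.03, and the gene that was lower was the Y-linked Eif2s3y. Under the Gapdh scaling the medians of both lists fell below 0 while remaining above that of all genes.

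Other mRNAs that carry a TOP motif varied more than the ribosomal proteins. The 16 such genes, of elongation, initiation and related roles, had a median log2 ratio of 0.51. Of these 3 were more than 2-fold higher (18.8%, against 7.98% of all genes): Hnrnpa1 at 1.35, Npm1 at 1.31 and Naca, a chaperone at the exit tunnel, at 1.25. Eif3e lay at -0.44 and Pabpc1, the poly(A)-binding protein, at -0.33. The 74 mitochondrial ribosomal protein genes, which serve the separate ribosome of the mitochondrion, had a median log2 ratio of 0.51. Above 0 were 69 of them, against 55.1% of all genes. Of them 8 (10.8%) were more than 2-fold higher, against 7.98% of all genes, and 1 was lower, Mrps14 at -1.01, against 7.81%. The mitochondrial median was below that of the cytosolic ribosomal proteins, and both lay above the 0.08 of all genes.

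**Figure D5:**
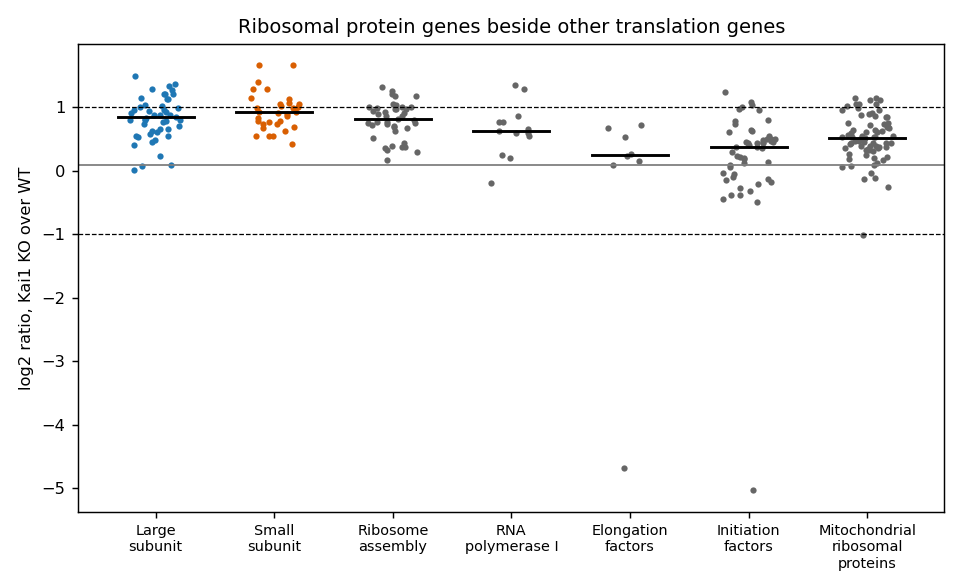
Log2 ratio of Kai1 KO over WT for the genes of each list, 1 point per expressed gene and black lines at the list medians, 0.83, 0.92, 0.81, 0.62, 0.24, 0.38 and 0.51 from left to right. The grey line is the median of all genes, 0.08, and the dashed lines are 2-fold. The points at the bottom are Eef1a2 and Eif2s3y, which were listed at 0 in Kai1 KO.

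Markers of dividing cells moved with the ribosomal proteins. All 12 of 12 were more than 2-fold higher in Kai1 KO, against 7.98% of all genes. Their log2 ratios ran from 1.01 to 1.92, with a median of 1.44 and a summed level of 253 RPKM in WT and 687 RPKM in Kai1 KO. Mki67 went from 5.43 to 19.1 RPKM. Most mural markers moved the other way. Of the 7 of 10 that were expressed, 0 were above 0, against 55.1% of all genes. More than 2-fold lower were 4, against 7.81%. Among those not expressed, Des and Notch3 were lower in Kai1 KO. Rgs5 was higher, at 0.0630 RPKM in WT and 0.233 RPKM in Kai1 KO, about 7.2 and 24.2 estimated reads. The median log2 ratio of the 7 was -1.04, and the summed level over the list was 4646 and 2977 RPKM. The 4 expressed fibroblast markers were also below 0, with a median of -0.96 and a summed level of 1761 and 919 RPKM. Of the macrophage markers 1 was expressed, Csf1r, at 11.7 and 2.66 RPKM, and Emr1, a defining one, was at 0 in both libraries. What part these shifts had in the ribosomal protein levels was not tested, and in bulk RNA more cells of a kind and more RNA per cell cannot be told apart.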

How the data were processed

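RNA-seq of PVCs gave 1 library per genotype. The authors used TopHat 2.0.9 with Bowtie on the mm9 genome (segments of 21 bases, at most 2 mismatches a read) and deposited RPKM values per RefSeq gene, 20462 lines a library. Cufflinks is among the tools in the submitters' processing notes. Read totals were not given in the sources used here.

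From the deposited RPKM, 38 unnamed lines were dropped, and 153 symbols on several lines were given their average. The log2 ratio used a pseudocount of 0.1, which understates the change of low genes, and a gene counted as expressed from an average of 1 RPKM. No p-value was computed, and more than 2-fold counted as called. Genes named were the paralogues and parents, the 5 highest and 5 lowest by mean level and by log2 ratio, fixed structural and disease groups, and members listed at 0. A few others in the text, such as Rpl8 and Rps3, were chosen after their values were seen, and some genes the rule would name are not reported here. The members and lists were chosen with earlier results of these data known.

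Reads were estimated from whole steps of low values with the length of the longest annotated transcript less 200 bases. Estimated reads and counting intervals rest on that length. With a tolerance of 0.15 reads, 78.8% of 728 low values in WT and 78.6% of 448 in Kai1 KO were whole. The step was fitted to these same values, so that the share describes the fit and is no test of it. Intervals and floors of 3 reads cover counting error only. Positions, lengths and coding sequences came from GENCODE M1, which matched 81 of 83 members. Transcript starts were RefSeq. Alternatives were other pseudocounts, filters and scalings, members without paralogues, a lowess fit on length (fraction 0.3) and, added after seeing the data, a scaling that undoes the length term, members with few copies and estimated reads. Scripts ran in Python 3.11.15 with pandas 2.3.3, numpy 2.4.6, statsmodels 0.14.6, scipy 1.17.1 and matplotlib 3.10.9.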

Additional observations from a re-analysis of the deposited data

How the results depend on the processing

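The members' median log2 ratio (0.87), the large minus small difference (-0.08), the 25 and 0 members more than 2-fold higher and lower, and the 803 and 786 genes more than 2-fold higher and lower, of which 50.5% were higher, stayed within 1.5 times under pseudocounts of 1 and 0.01 RPKM. Without the filter the median was 0.85, the difference -0.11, 1 member (Rpl3l) was lower, and 1205 genes were higher and 1878 lower (39.1% higher). With a mean of at least 5 RPKM 511 were higher and 350 lower (59.3%). Scaled to the same sum of RPKM the median was 0.39, 3 members were higher, and 286 genes were higher and 1816 lower (13.6%), with the median of all genes at -0.39. Scaled to Gapdh these were 0.37, 2, 278 and 1856 (13.0%), with -0.41. Scaled to the sum over other genes, the median was 0.68, 13 members were higher and 511 genes were higher (31.9%), with -0.11. Scaled to the same sum of RPKM times length less 200 bases, chosen after seeing the data, the median was 0.62, 10 members were higher, and 461 genes were higher and 1203 lower (27.7%), with -0.17. With the median of all genes set to 0 it was 0.79, and 42.1% of the calls were higher. Without paralogues it was 0.85. With the length trend removed it was 0.55 and the difference turned to 0.055, which rests on 78 members. The shares of summed RPKM were 37.5% and 48.9%, with repeated symbols summed 37.5% and 48.9%, without the 5 members of highest mean 29.7% and 40.8%, and as estimated reads, chosen after seeing the data, 18.5% and 27.3%. The cause of these shifts was not tested beyond the scaling itself. Of 77 alternative values for 11 single genes, the 3 expressed paralogues, the parents of all 6 paralogues, and Rpl26 and Rps4x, whose paralogues had no symbol among the members, 22 stayed within their counting interval, 55 moved, and 0 changed sign. No paired analysis was possible because WT and Kai1 KO were sequenced once each. Estimated reads were at least 2250 in either library for the 78 expressed members with a transcript length. The single library per genotype, the scaling and the copies elsewhere in the genome all limit these ratios, and their parts were not compared.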

Other observations

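Regulators of ribosome production had lower log2 ratios than the ribosomal proteins. Of the MYC family 7 genes were expressed, with a median log2 ratio of 0.29. Myc, which drives ribosomal protein and ribosomal RNA genes, had 15.6 RPKM in WT and 21.95 RPKM in Kai1 KO, a log2 ratio of 0.49, which is no larger than the shift of -0.50 that the Gapdh scaling brings. Its partner Max had 45.8 and 34.2 RPKM, a log2 ratio of -0.42. The antagonists of Myc went both ways, with Mxd4 and Mnt at -0.67 and -0.66 and Mxd3 and Mxi1 at 0.38 and 0.29. Of these antagonists Mxd3 was the most abundant, with 258 RPKM in WT and 336 RPKM in Kai1 KO. Mycl was the only one past 2-fold before any rescaling, with 0.563 and 1.53 RPKM.

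The 12 expressed growth control genes, of the mTOR pathway that controls translation of TOP mRNAs, had a median log2 ratio of -0.11, below the median of all genes. Of them 0 passed 2-fold in either direction, against 7.98% higher and 7.81% lower of all genes, a difference that 12 genes cannot resolve. Mtor had 2.29 RPKM in WT and 1.77 RPKM in Kai1 KO, a log2 ratio of -0.35. Eif4ebp1, the repressor of cap-dependent initiation, had 574 and 438 RPKM, a log2 ratio of -0.39, and Larp1, which binds TOP mRNAs, had 13.7 and 15.2 RPKM, a log2 ratio of 0.15. RNA levels of these kinases and binding proteins do not give their activity.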
